A study of Drosophila melanogaster with 4 samples.

Results

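The short introns of the autosomes were examined for RNA recovered with Sister of Sex-lethal (Ssx), a protein that binds RNA and is related by gene duplication to Sex-lethal, the switch of female development. The members are the rows of the deposited intron table that lie on a numbered chromosome arm (2L, 2R, 3L, 3R or 4) and whose end minus start is under 1000 nt, which gives 1450 of 8796 intron rows and 870 of 2946 genes. Overlapping rows on the same strand with an equal mean hold the same reads, and merging them left 1183 observations. The study applied iCLIP, in which protein is crosslinked to RNA and the bound RNA is sequenced, to SL2 cells, a male embryonic Drosophila melanogaster line with hemocyte features. Its 4 libraries comprised 2 Ssx IP libraries, recovered with a polyclonal rabbit antibody against Ssx, and 2 control IgG IP libraries, recovered with rabbit IgG. The labels name no treatment or genotype beyond the cell line. Whether replicate libraries stem from different cultures is not stated. The p-values therefore cover the variation among these 4 libraries alone, and that variation may be technical.

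Short introns are the common form of intron in Drosophila and are mostly removed by recognition across the intron itself. Many of them carry a second product. Small nucleolar RNAs (snoRNAs) are cut out of the spliced introns of host genes, among them the Uhg genes, whose main products are these RNAs, and many ribosomal protein genes. Box C/D snoRNAs guide the methylation of ribosomal RNA and box H/ACA snoRNAs its conversion to pseudouridine, and the Drosophila names record this with Me or CD and with Psi or aca. Ssx and Sex-lethal both recognise U-rich stretches, and a well known short autosomal target of Sex-lethal is the intron in the leader of msl-2.

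Coverage decided how much of this set could be tested. The authors' deposited table gives each interval a mean of normalized reads over the libraries, a log2 fold change with its standard error, and an adjusted p only where the mean was high enough. Here a tested interval is one with an adjusted p. Only 40 rows, 34 observations and 27 genes among the short autosomal introns were tested, with means from 5.69 to 21.0 normalized reads, while the other 1149 observations had means of at most 5.48. The reads behind a mean could be recovered as whole numbers for 100% of the rows, as described under the processing. The median observation held 3 reads over the 4 libraries together, 619 of 1183 (52.3%) held 2 or 3, and the highest held 158. In 457 observations (38.6%) all reads came from 1 library. Tested observations held 14 to 158 reads, with a median of 53.

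The recovered libraries carry no names, and no label assigns them to a group. They are numbered here by size factor, from library 1 (2.60) and library 2 (1.89) to library 3 (0.551) and library 4 (0.402). Over non-overlapping short autosomal introns they held 3330, 3096, 747 and 267 reads. A single read therefore added 0.384 normalized reads in library 1, 0.530 in library 2, 1.82 in library 3 and 2.49 in library 4. The lowest tested mean corresponds to 59.3 reads if all of them lay in library 1 and to 9.15 reads if all lay in library 4. A negative value in a thinly covered intron can thus rest on a handful of reads in a shallow library. The side of each library is given below, and its reads are given beside the leading results.

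The direction of the deposited fold change is not written in the table. Positive values are taken here to mean more reads in the Ssx IP than in the control IgG IP. That reading is likely, since the submitters' title for the tables speaks of bound transcripts. Observations of 2 reads had a median of -0.00035 for the log2 fold change that the authors' deposited table gives. There, 8 reads in library 1 alone gave 0.70 (CG8671) and 6 in library 2 alone 0.72 (GATAd). In library 3 alone 2 reads gave -1.65 (grp), and in library 4 alone -2.01 (Mhc). The fold changes thus place libraries 1 and 2 on the positive side and the shallow libraries 3 and 4 on the negative side. Depth therefore goes with group, and the 2 cannot be told apart.

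By the authors' test, 2 of the 27 tested genes (7.41%) were higher in the Ssx IP and 4 (14.8%) were lower, at a DESeq2 adjusted p under 0.05. Among the 507 tested genes with an intron of any kind, 4.73% were called higher and 6.90% lower. In either direction 6 of the 27 were called, beside 11.6% of the 507. Counted by observation, 2 of 34 were called higher, 4 lower and 6 in either direction, beside 3.52%, 5.38% and 8.90% of the 910 tested intron observations. With so few genes 1 call moves the share by several points, and the shares are not read as different. The genes called higher were CG42324 and RpL28. Those called lower were Jabba, fbp, Eaat2 and GABA-B-R3. The median log2 fold change of the 34 tested observations was 0.39, against 0.71 over the 910 tested observations of all introns, and 18 of the 34 were positive. Of the 34, 24 lay within 2 standard errors of 0.

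**Figure D1:**
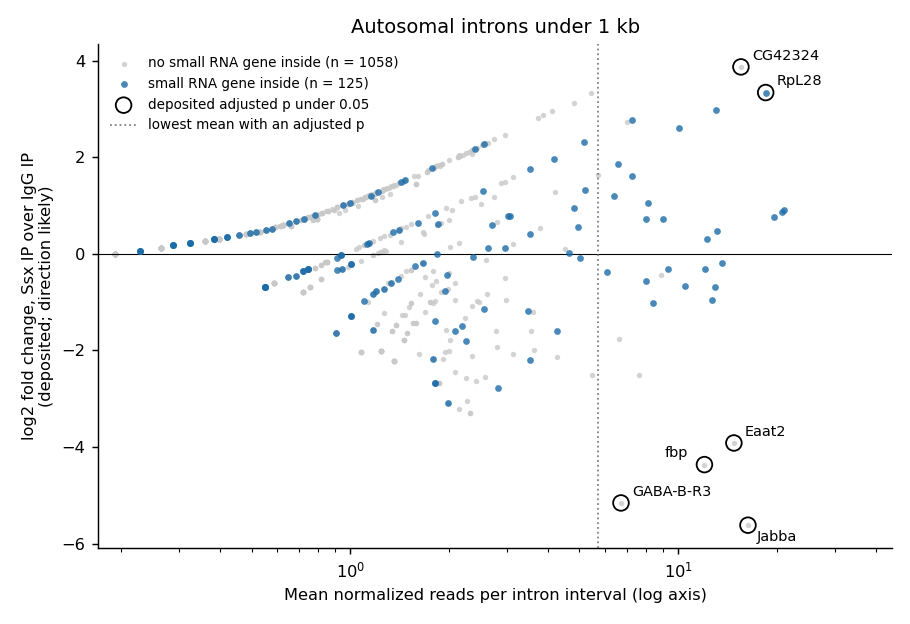
Each point is 1 of the 1183 short autosomal intron observations, with its mean of normalized reads on a log axis and its deposited log2 fold change. Blue points hold an annotated small RNA gene, circles mark an adjusted p under 0.05, and the dotted line at 5.69 is the lowest mean with an adjusted p. The 4 introns called lower lie between -3.92 and -5.62, and the 2 called higher at 3.88 and 3.34.

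The feature most of the tested introns shared was an annotated small RNA gene. According to the RefSeq annotation of Release 6, the build of the files, a whole snoRNA, tRNA or snRNA gene lay inside 24 of the 34 tested observations (70.6%). Some of these observations are nested intervals that share reads. Counted by stretch of overlapping intervals, 21 of 31 tested stretches (67.7%) held such a gene. Over all 1183 observations a small RNA gene lay inside 125 (10.6%). Introns with such a gene held a median of 8 reads, against 3 in the introns without one, although they were narrower, with a median width of 237 nt against 506 nt. Of the 67 observations with 20 or more reads, 38 held a small RNA gene. Among non-overlapping introns, 117 of 1117 held one, and these carried 31.2% of the reads. The share of reads in them was 36.7%, 25.2%, 33.1% and 28.1% in libraries 1 to 4. The RefSeq table gives no strand, so a gene on the opposite strand would be counted too. Reads from a small RNA and reads from the intron around it cannot be told apart in these tables.

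Other intron classes are given beside this as a description, without a test. A small RNA gene lay inside 8.54% of the 199 tested observations of autosomal introns of 1 to 10 kb, inside 10.8% of the 436 tested observations of 10 kb or more, and inside 3 of the 10 tested observations of X-linked introns under 1 kb.

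Most of the small RNA genes annotated inside tested introns belonged to 1 class. Introns whose only small RNAs were box C/D snoRNAs by name numbered 68, of which 20 were tested, 29 had 20 or more reads and the median was 13 reads. RpL28 supplied 6 of the tested ones, some of them nested intervals that share reads. Introns with box H/ACA snoRNAs by name numbered 21. None of these was tested, 1 had 20 or more reads, and the median was 5 reads. Another 16 introns held snoRNAs whose names give no class, with a median of 4 reads, and 5 held small Cajal body RNAs, with a median of 4 reads. The annotated C/D genes were shorter, with a median of 77.5 nt against 140.5 nt for H/ACA genes, and so were their introns, at 191 nt against 306 nt. Of the 7 introns with tRNA genes 2 were tested, and both introns with a spliceosomal snRNA gene were.

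**Figure D2:**
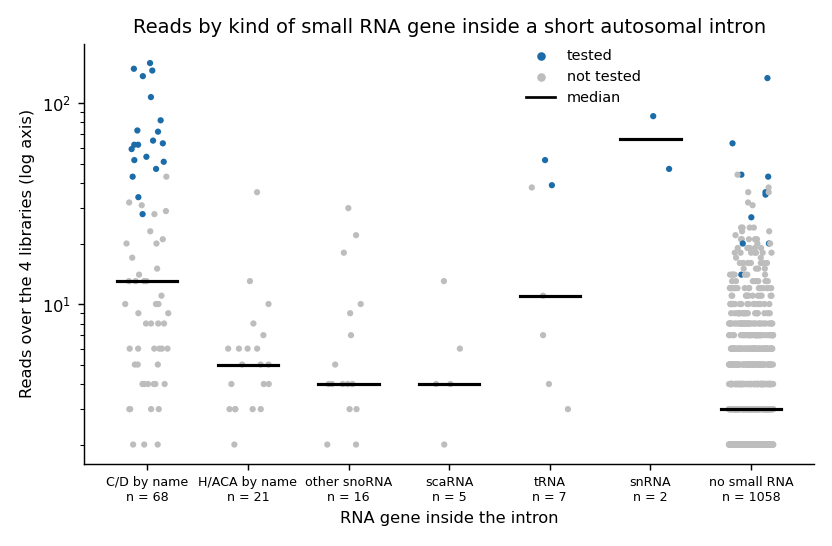
Reads over the 4 libraries for each short autosomal intron observation, on a log axis, by the kind of RNA gene inside, with medians as bars. Tested introns, in blue, are found among the C/D, tRNA and snRNA groups and among introns with no small RNA gene. The medians were 13 reads for C/D, 5 for H/ACA and 3 for introns without a small RNA gene.

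The tested introns with a small RNA gene had log2 fold changes that in the authors' deposited table ran from -1.02 to 3.34, with a median of 0.72 over 24 observations, and 1 was called, in the higher direction. The 10 tested introns without a small RNA gene ran from -5.62 to 3.88. They held the other 5 calls, 4 of them in the lower direction. These ranges describe only introns that passed the filter on the mean, which few reads can pass when they lie in libraries 3 and 4, and they do not compare the 2 kinds of intron. Over all observations, tested or not, the medians from the authors' deposited table were 0.13 in the 125 with a small RNA gene and 0.13 in the 1058 without. The median without one equals the value of 2 reads in library 2 alone (as in spen). It is thus set by the lowest read counts, and the medians do not show the 2 kinds of intron to be alike.

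RpL28, a protein of the large ribosomal subunit, was the only host gene with a called intron. Its listed short introns all hold C/D snoRNAs, and all were tested. The intron with snoRNA:Or-CD12 (3L, 3221284 to 3221466, minus strand) held 94, 62, 0 and 2 reads in libraries 1 to 4. Nearly all of its 158 reads, the most of any short autosomal intron, thus lay in libraries 1 and 2. Its log2 fold change was 3.34 ± 1.12 (SE) in the authors' deposited table, with a DESeq2 adjusted p of 0.0341. The neighbouring intron with snoRNA:Me28S-C3351 (3L, 3221710 to 3221881) held 32, 25, 16 and 0 reads. It had a log2 fold change of -0.19 ± 1.13 according to the authors' deposited table (adjusted p = 0.930 by DESeq2). Library 3, which had no read in the first of these introns, supplied 16 in the second. Whether the introns differ in their fold change was not tested.

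Upstream, a series of nested RpL28 intervals that share their 3′ end shows where the reads lay. The narrowest, of 170 nt and with snoRNA:Or-CD11c, held 59 reads. The next interval, 213 nt longer, added snoRNA:Or-CD11b and 77 reads. A further 209 nt with snoRNA:Or-CD11a added 9 reads, the following 213 nt added 3, and the outermost 60 and 79 nt added none. The log2 fold changes of these intervals ranged from 0.77 to 1.05 by the authors' deposited table, with DESeq2 adjusted p-values of 0.637 to 0.704. The longer intervals overlap listed 5′ UTR intervals of the same gene, so part of these reads was counted in both tables. The 3 Or-CD11 genes belong to 1 family, and reads could have been split among near-identical copies.

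**Figure D3:**
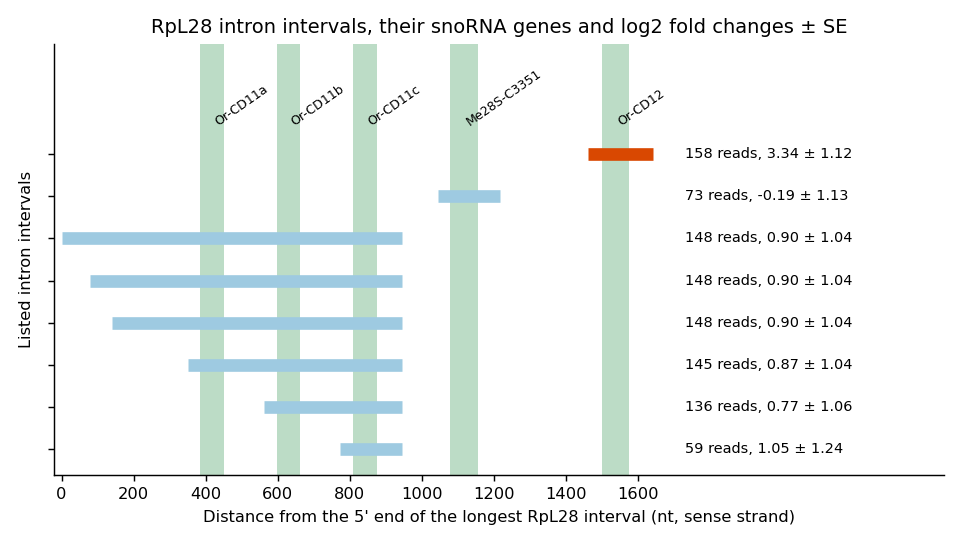
Listed RpL28 intron intervals drawn to scale along the sense strand, with the annotated snoRNA genes as green bands and the reads and deposited log2 fold change ± SE of each interval at the right. The orange interval with Or-CD12 passed an adjusted p of 0.05 at 3.34 ± 1.12, while the others lay between -0.19 and 1.05.

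Among the Uhg genes, Uhg3 came closest to a call. Its intron with snoRNA:Me28S-C2645b (2L, 20648014 to 20648188, plus strand) held 48, 57, 2 and 0 reads in libraries 1 to 4. The log2 fold change was 2.99 ± 1.19 in the authors' deposited table and did not pass (adjusted p = 0.0888 by DESeq2). The adjacent intron with snoRNA:Me28S-C2645c held 40, 40, 2 and 0 reads and had 2.60 ± 1.23 (adjusted p = 0.161 by DESeq2 in the authors' deposited table). Both introns drew their reads from libraries 1 and 2 in much the same ratio. The intron with the remaining copy, C2645a, held 13 reads and was listed at 0.61 ± 1.60 in the authors' deposited table, without an adjusted p. The 3 snoRNAs share a target name and may be near-identical, so the division of reads among them is uncertain.

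Other Uhg genes varied around 0. Of the 9 Uhg1 introns with snoRNAs, 6 were positive, with log2 fold changes of -0.83 to 2.31 according to the authors' deposited table, and the tested one, with snoRNA:Me28S-A1666a, had 1.87 ± 1.29 (adjusted p = 0.356 by DESeq2). The 2 tested Uhg4 introns carry copies of the same guide. The intron with snoRNA:Me28S-A982b was at -1.02 ± 1.16 and that with A982a at 0.30 ± 1.04 in the authors' deposited table. Their reads were 9, 13, 10 and 2 for A982b and 32, 29, 9 and 2 for A982a. Across the 7 Uhg4 introns the values ran from -1.02 to 1.97, across the 12 of Uhg5 from -0.44 to 1.30 and across the 5 of Uhg2 from -1.30 to 2.28 in the authors' deposited table. No intron of a Uhg gene was called.

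Ribosomal protein genes made up the largest listed group. Of 38 such genes with a short autosomal intron 6 were tested, 1 was called higher and none lower. All 11 of their tested observations, 6 of them in RpL28, held a C/D snoRNA. The median over their 68 observations was 0.16, beside 0.13 over all 1183. RpS16, of the small subunit, held 47, 17, 1 and 0 reads in libraries 1 to 4 in the intron with snoRNA:Me28S-G2173. Its log2 fold change of 2.78 ± 1.36 according to the authors' deposited table did not pass (adjusted p = 0.183 by DESeq2). RpS3A, on chromosome 4, was at 1.20 ± 1.28, RpL13A at -0.69 ± 1.16 and RpS9 at -0.96 ± 1.03 in the authors' deposited table. RpL13A illustrates the weight of a shallow library, since 18 of its 63 reads lay in library 3 and made up 63.2% of the normalized reads. This interval overlaps listed CDS and 3′ UTR intervals of RpL13A, so its reads cannot be assigned to the intron alone. A nested interval of 201 nt held 18, 3, 2 and 0 reads and was at 0.78 ± 1.51, without an adjusted p.

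Further tested hosts were near 0 relative to their errors. The intron of Esyt2, an extended synaptotagmin, contains a gene of the spliceosomal U6 snRNA and held 64, 12, 5 and 5 reads. It had a log2 fold change of 0.47 ± 1.05 according to the authors' deposited table (adjusted p = 0.817 by DESeq2). An intron of v(2)k05816, now FASN2, a fatty acid synthase, contains a gene of the spliceosomal U5 snRNA and was at -0.30 ± 1.09 in the authors' deposited table. The introns of CG9289 and PIG-S, each with a pair of aspartate tRNA genes, were at 0.72 ± 1.24 and -0.57 ± 1.16. Those of CG13900, now Sf3b3, a subunit of the SF3b splicing complex, were at -0.67 ± 1.06 and -0.30 ± 1.01, the second of them shared with CR45184. Arf79F, a small GTPase of membrane traffic, was at 1.61 ± 1.28 and Uhg7 at -0.38 ± 1.27 in the authors' deposited table. U6, U5 and tRNA genes exist in several near-identical copies, so the locus of origin of these reads is uncertain.

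**Figure D4:**
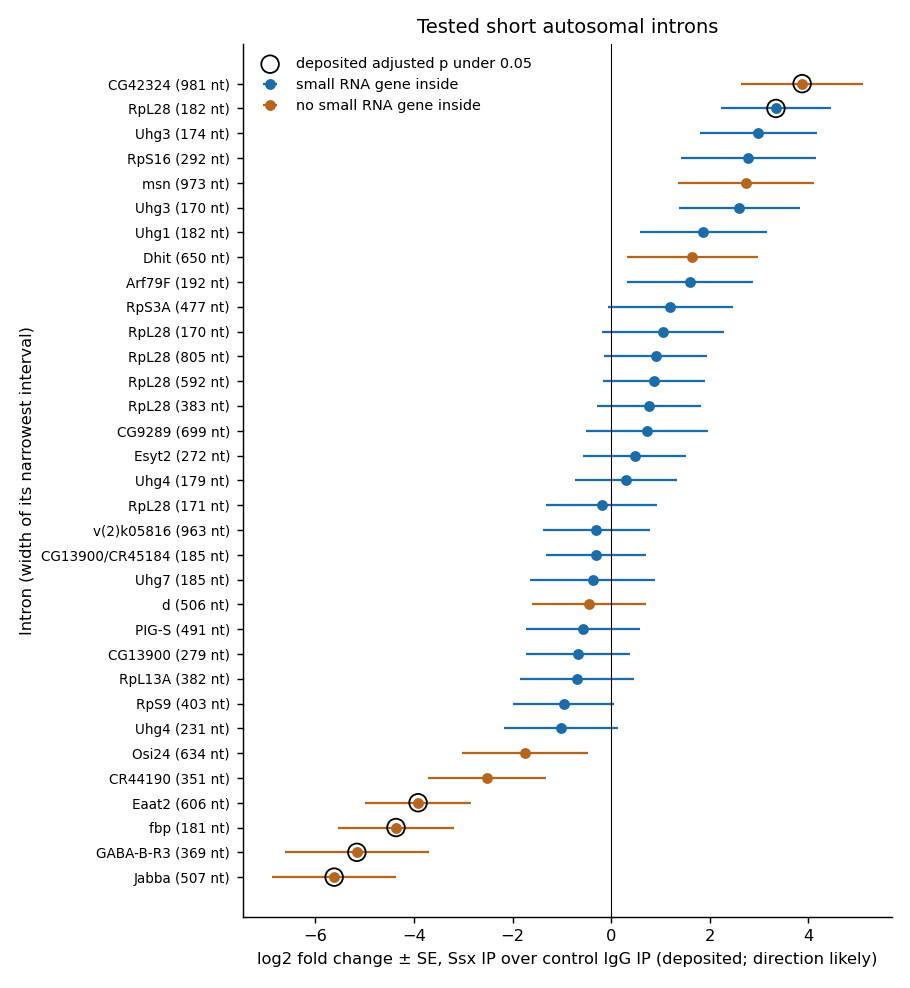
Deposited log2 fold change ± SE of the tested observations, with 1 gene left out, ordered by value, with introns that hold a small RNA gene in blue and the others in brown. Circles mark an adjusted p under 0.05. Each point passed the filter on the mean. Blue points lie between -1.02 and 3.34, and the brown ones hold both ends of the range, -5.62 and 3.88.

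Of the tested introns without a small RNA gene, the one with the largest positive value was that of CG42324 (3L, 3505093 to 3506074, plus strand). It held 66, 66, 1 and 0 reads in libraries 1 to 4. The log2 fold change was 3.88 ± 1.23 in the authors' deposited table (adjusted p = 0.0235 by DESeq2). Libraries 1 and 2 thus supplied an equal number of reads. The interval also covers a listed 3′ UTR interval of the same gene (1.27 ± 1.73 in the authors' deposited table, with no adjusted p). Another 3′ UTR interval of CG42324, outside this intron, was at -0.29 ± 0.99 (adjusted p = 0.878 by DESeq2). Its listed CDS intervals were at 0.58 ± 1.46 and 1.28 ± 1.42, and neither passed (DESeq2 adjusted p = 0.863 and 0.855). msn, a kinase of the Ste20 family, followed at 2.74 ± 1.37 from 46, 16, 1 and 0 reads and did not pass (adjusted p = 0.196 by DESeq2 in the authors' deposited table). An intron of Dhit was at 1.65 ± 1.33 and that of d, now dachs, an unconventional myosin, at -0.44 ± 1.16 in the authors' deposited table.

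The 4 genes called lower drew most of their reads from library 3. Jabba, which anchors histones on lipid droplets, held 1, 0, 33 and 2 reads in libraries 1 to 4. Its interval runs on the minus strand of 2R, 18757523 to 18758030, and its log2 fold change was -5.62 ± 1.26 according to the authors' deposited table (adjusted p = 0.000903 by DESeq2). The same stretch contains listed CDS and 3′ UTR intervals of Jabba, so these reads cannot be assigned to the intron alone. In the authors' deposited table the 3′ UTR interval was at -5.21 ± 1.35 (adjusted p = 0.00133 by DESeq2). The CDS interval, over nearly the same stretch, was at -1.72 ± 1.52 (adjusted p = 0.855 by DESeq2). fbp, the gluconeogenic enzyme fructose-1,6-bisphosphatase, held 3, 0, 19 and 5 reads (2L, 19762306 to 19762487, minus strand). Its value was -4.36 ± 1.18 in the authors' deposited table, with a DESeq2 adjusted p of 0.00871. Libraries 3 and 4, the shallow ones, held 24 of these 27 reads.

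Eaat2, an excitatory amino acid transporter, held 5, 1, 23 and 6 reads (2L, 738838 to 739444, minus strand), and its log2 fold change was -3.92 ± 1.07 according to the authors' deposited table (adjusted p = 0.00956 by DESeq2). GABA-B-R3, a metabotropic GABA receptor subunit, held 0, 0, 12 and 2 reads (2L, 757430 to 757799, plus strand). It was at -5.16 ± 1.47 in the authors' deposited table (adjusted p = 0.0112 by DESeq2), the fewest reads of any tested short autosomal intron. In the 4 introns library 3 supplied between 65.7% and 91.7% of the reads. The part of this library in the calls was not tested. Other listed short introns of GABA-B-R3 were at 0.18 ± 1.62 and 0.46 ± 1.49 in the authors' deposited table, without an adjusted p. CR44190, a non-coding RNA gene, was at -2.51 ± 1.20 and Osi24 at -1.75 ± 1.28, and neither passed (DESeq2 adjusted p = 0.166 and 0.393 in the authors' deposited table). In Osi24, 8 of 20 reads lay in library 4 and made up 75.4% of the normalized reads.

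**Figure D5:**
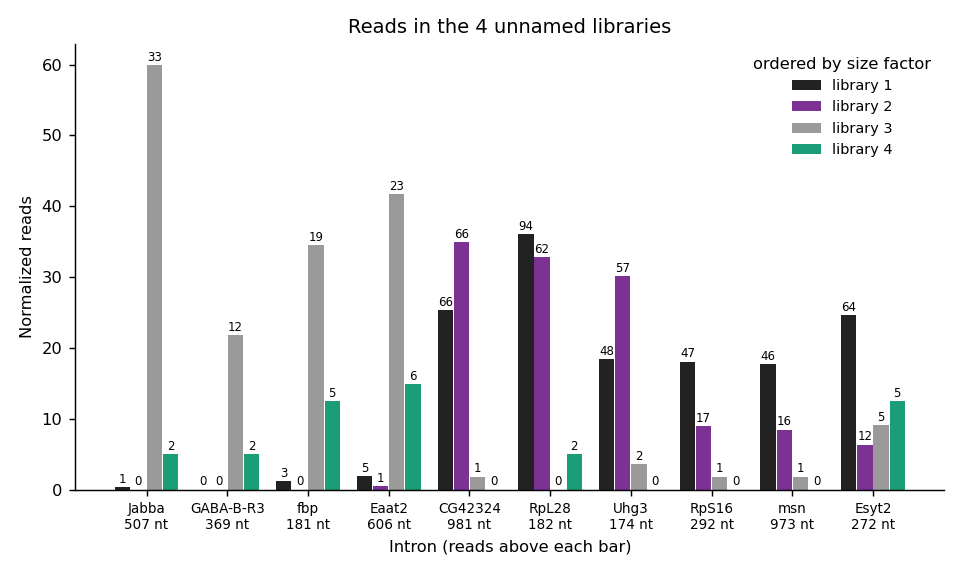
Normalized reads of 10 tested introns in the 4 unnamed libraries, ordered by size factor, with the reads written above each bar. Library 3 holds most of the reads of Jabba, GABA-B-R3, fbp and Eaat2, with 33, 12, 19 and 23 reads, while the introns of CG42324, RpL28 and Uhg3 draw on libraries 1 and 2.

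Because Ssx is a paralog of Sex-lethal, short introns of sex determination and dosage compensation genes were looked up. Of that list 5 genes had a short autosomal intron in the table, and none was tested. The leader intron of msl-2, a protein of the dosage compensation machinery of males (2L, 3465919 to 3466051, minus strand), held 8 reads, all of them in library 2. Its log2 fold change was 0.99 ± 1.58 in the authors' deposited table, with an unadjusted p of 0.529 by DESeq2. A listed 5′ UTR interval of msl-2 (3465640 to 3466112) contains this intron, so the same reads may be counted in both. That interval was at 3.21 ± 1.85, without an adjusted p. fru held 3 reads and gro 5, also only in library 2, and mle held 1 read in library 1 and 4 in library 2. tra2, a splicing regulator of the sex determination pathway, held 4 reads in an intron with a small Cajal body RNA gene and was at -0.31 ± 1.56 in the authors' deposited table. No difference was detectable in these introns at such depth.

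The other lists gave few tested members. None of 12 splicing factors and hnRNPs, 7 translation factors, 2 chaperone and redox genes, 8 cytoskeleton and adhesion genes, 12 chromatin and transcription genes, 2 histone genes and 6 signalling genes had a tested short autosomal intron. The energy metabolism list had 1 tested gene among 7 (v(2)k05816), the membrane traffic list 1 among 4 (Arf79F), and the small RNA host list 5 among 13, with 0 called by DESeq2 in either direction in each. The hnRNP gene Hrb98DE and the tubulin gene alphaTub84B, named after their values were seen, had 2.97 ± 1.52 from 36 reads and 2.82 ± 1.54 from 32 reads in the authors' deposited table. Both lacked an adjusted p, with unadjusted DESeq2 p-values of 0.0512 and 0.0665.

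Width within the set went with coverage and content. None of the 143 observations narrower than 100 nt was tested, and their median was 2 reads. From 100 to 200 nt, 11 of 123 (8.94%) were tested, and 35.8% held a small RNA gene. The tested shares were 3.31% of 363 observations from 200 to 500 nt and 1.99% of 554 from 500 to 1000 nt. Calls fell on 3L (CG42324 and RpL28, higher), 2L (fbp, Eaat2 and GABA-B-R3, lower) and 2R (Jabba, lower). These arms had 13, 9 and 6 tested observations. No call fell on 3R or 4, which had only 5 and 1 tested observations. The widest tested row inside the limit was the CG42324 row of 987 nt, and the narrowest one outside it, a PMCA row of 1057 nt, had 0.55 ± 1.31 in the authors' deposited table (adjusted p = 0.835 by DESeq2). Also just outside, a v(2)k05816 intron of 1065 nt had a mean of 329 normalized reads and a value of 2.62 ± 0.65 in the authors' deposited table (adjusted p = 0.00402 by DESeq2). With the limit at 2000 nt, 3 genes were called higher and 5 lower.

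Set beside introns of similar width on the X, the autosomal ones had values in both directions. All 10 tested observations of X-linked introns under 1 kb were positive, with a median log2 fold change of 3.89. They came from 6 genes, of which 3 were called higher and 0 lower. Among the 507 tested genes with an intron of any kind, 4.73% were called higher and 6.90% lower. Like the autosomal ones, these X-linked observations had passed the filter on the mean. Among autosomal short introns 18 of 34 were positive. Over all listed observations the positive share was 69.1% on the X and 61.6% on the autosomes, and the median log2 fold change was 0.13 on both. No test of this difference was made, and it rests on few tested introns.

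Of 11 genes on a hemocyte marker list, 8 were listed in at least 1 of the 4 tables, Lis-1 among them. Their highest mean was 8.38 normalized reads. None of the 4 germline and 2 gut markers was listed, 1 of 3 fat body markers was, and of 3 neuronal and 3 muscle markers 2 each were listed, with highest means of 5.72 and 1.24. Hml and NimC1, which mark mature hemocytes, were not among the listed names, and neither was SPARC. Such tables show recovery in the IPs and not expression, and these counts do not identify the cell line.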

How the data were processed

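For the upstream steps, the submitters' processing notes list DESeq2 1.14.1 and DESeq, Bowtie 0.12.7 and cutadapt 1.6, with dm6 and BDGP6 as builds. How reads were counted, which annotation and strand setting were used and how duplicates were treated is not given in the sources used here. PCR duplicates that were kept would inflate counts. Per the file headers, the authors deposited per interval a mean signal of normalized reads, a log2 fold change with standard error, a score equal to their ratio, a p-value and an adjusted p-value. No column holds a single library, and the recovered reads carry no library names. edgeR, DESeq2 and leave-one-out fits were not run on the recovered reads. The deposited adjusted p-values are the test, and which intervals they were adjusted over is not recorded.

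Each mean averages the whole reads of 4 libraries, each divided by its size factor. Solving for these reads (tolerance 2e-11 reads) gave a single solution for all 370 distinct means of short introns. No label assigns the libraries to groups. Interval ends abut CDS starts without sharing a base, so coordinates are 1-based. Of 870 names, 855 matched RefSeq Release 6. Python 3.11.15, pandas 2.3.3 and scipy 1.17.1 were used, and the recovery was tested on simulated data.

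Members, lists and features were chosen with earlier results of these data known. Named are all called genes, the 10 highest means, the 6 largest and 6 most negative folds, tested list members, and the remaining tested genes for completeness, except 1 that is not reported here.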

Additional observations from a re-analysis of the deposited data

How the results depend on the processing

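Of the genes called higher (2 as reported), 0 passed at a threshold of 0.01, 0 with a Benjamini-Hochberg adjustment over all listed intron intervals and 0 over the 4 tables together. The count was 1 for widths under 500 nt and 1 without introns that overlap listed exonic intervals, and with the opposite direction it would be 4. Of the genes called lower (4 as reported), 1 passed with an adjustment over all listed intron intervals and 1 over the 4 tables, 2 lay under 500 nt, and with the opposite direction 2 would be called. Only Jabba kept its call under both of these adjustments, at DESeq2 p-values re-adjusted to 0.00788 and 0.00865. CG42324 moved to 0.211 and 0.240, RpL28 to 0.282 and 0.316, fbp to 0.0730 and 0.0761, Eaat2 to 0.0812 and 0.0846, and GABA-B-R3 to 0.0981 and 0.111. These adjustments cover many more intervals than those listed with an adjusted p. With a Benjamini-Hochberg adjustment over only the intron intervals listed with an adjusted p, 2 genes were called higher and 4 lower. The median log2 fold change stayed between 0.056 and 0.47. The share of tested observations with a small RNA gene was 58.8% with snoRNAs only and 87.0% for widths under 500 nt. Of the observations with 20 or more reads, tested or not, 56.7% held a small RNA gene. These settings were all chosen after seeing the data. Comparing introns with and without runs of T was not run, since no genome sequence was used here. No paired analysis was possible because the columns carry no libraries. With a median of 3 reads, most of these introns could not show a difference.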

Other observations

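The introns of Eaat2 and GABA-B-R3, both called lower, lie 17986 nt apart on 2L on opposite strands, and 0 genes of the RefSeq table lie wholly between the 2 genes.

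A further 5 observations had an unadjusted DESeq2 p under 0.05 without an adjusted p. Those of CG11148 on chromosome 4 (11, 33, 0 and 0 reads in libraries 1 to 4) and stg, the Cdc25 phosphatase of the cell cycle (6, 32, 0 and 0 reads), were at 3.33 ± 1.50 and 3.12 ± 1.52 in the authors' deposited table. Those of chico, Ero1L and Nup358 held 4 reads each and were at -3.22 ± 1.61, -3.30 ± 1.60 and -3.30 ± 1.60 in the authors' deposited table. These genes were named after their values were seen.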
